A study of Homo sapiens with 9 samples.

Results

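RBFOX2 binding was compared between 2 human cell lines in 10plex antibody-barcode eCLIP (ABC), in which the antibodies against 10 RNA-binding proteins (RBPs) are pooled in a single tube and the DNA barcode of each antibody, ligated on the beads to the RNA that its protein holds, names the protein behind every read. The RBFOX2 libraries are 5 of the 50 libraries of 10plex ABC: 2 from HEK293 cells, a line of human embryonic kidney cells (HEK293T in the sample titles, HEK293XT in the methods of the study), and 3 from K562 cells, a line from a chronic myelogenous leukaemia. They were chosen by protein and cell line, and libraries made with a single antibody were left out. All 5 pools held the same antibodies (RBFOX2, PUM2, DDX3, FAM120A, ZC3H11A, LIN28B, SF3B4, EIF3G, PRPF8 and IGF2BP2), and all cells were unmodified, untreated and crosslinked with ultraviolet light at 254 nm. The titles and source names of the HEK293 samples read HEK293T, while their cell line field reads K562 and both titles read replicate 1 with a former number of 1 or 2, which is the number used here. K562 replicates carry their present title number, and only K562 replicate 3 shares a former number with a HEK293 sample, replicate 1. The source name of K562 replicate 3 reads K563. The labels do not say whether replicates came from separate cultures, so p-values measure the spread between these pools, which may be technical.

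RBFOX2 belongs to the RBFOX family of splicing factors, which bind the RNA sequence GCAUG, written GCATG in the genome, through a single RNA recognition motif. Bound in the intron downstream of an alternative exon, RBFOX proteins mostly favour its inclusion, and bound upstream they mostly favour skipping. RBFOX2 is broadly expressed, and its best studied targets are alternative exons of cytoskeletal, adhesion and signalling genes.

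The sequences below carry the comparison of sites. Each is 29 nt of GRCh38 around a GCATG, written 5′ to 3′ on the transcribed strand with the GCATG in capitals. The GCATG lies in, or within 50 nt of, one of the RBFOX2 sites with the most RPM of its class in genes that the other 9 RBPs also bound. Sites with no GCATG were passed over, and the GCATG of U2AF2 lies beyond the 3′ end of its site. The first 4 belong to sites where RBFOX2 was enriched in all 5 libraries, the next 4 to sites found in HEK293 and the last 4 to sites found in K562.
MMP25-AS1, both lines, noncoding exon, chr16:3054217-3054245, minus strand: ccctgcctctgtGCATGcatctgtccatt
LRCH4, both lines, CDS, chr7:100575403-100575431, minus strand: cccagcacgtcaGCATGtgggcgtggttc
NEAT1, both lines, noncoding exon, chr11:65422972-65423000, plus strand: gtggggcaggctGCATGgaaaatatccgc
U2AF2, both lines, distal intron, chr19:55670558-55670586, plus strand: gttagaggacctGCATGccgtattgagtc
INPP5A, HEK293, distal intron, chr10:132763817-132763845, plus strand: ataaacacatctGCATGcaaacacacaca
MMP25-AS1, HEK293, noncoding exon, chr16:3054793-3054821, minus strand: ccccgcctctgtGCATGcatctgtccatc
SNAP47, HEK293, CDS, chr1:227767403-227767431, plus strand: gcatgtacatgtGCATGctgtgtgtagtg
PTPRF, HEK293, distal intron, chr1:43587600-43587628, plus strand: tgtggggtctttGCATGcctgggcccccc
ADAMTSL4, K562, proximal intron downstream of an exon, chr1:150555847-150555875, plus strand: gtagacacacatGCATGaacacatgcaca
HK1, K562, 5′ UTR, chr10:69315780-69315808, plus strand: gaggcccaggttGCATGaggggttggggg
GABRG3, K562, distal intron, chr15:27088888-27088916, plus strand: catgggggagatGCATGgggaggatcaca
PRKCB, K562, distal intron, chr16:23886848-23886876, plus strand: tctttccttggtGCATGtccctccttccc

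Peaks were called enriched where they exceeded an external background more than 8-fold at a P under 0.001, the limits of the study. Of the merged peaks on chromosomes 1 to 22 and X, 157855 and 206667 in the HEK293 libraries and 36378, 57668 and 29291 in the K562 libraries, 12.3%, 6.84%, 40.6%, 32.5% and 40.2% were enriched. This left 19349 and 14137 enriched RBFOX2 peaks in HEK293 and 14754, 18721 and 11789 in K562. The lines overlapped, with 16743 ± 3685 (SD, n = 2) in HEK293 and 15088 ± 3478 (SD, n = 3) in K562 (exact permutation test of the line labels, two-sided, p = 0.6, with 0.2 the smallest that 2 against 3 libraries can give). The enriched peaks lay in 4923 and 3858 genes in HEK293 and in 3960, 4485 and 3492 in K562, which overlapped as well (exact permutation p = 0.6). Reads in RBFOX2 peaks summed to 1244895 and 2027625 in HEK293 and to 304558, 472712 and 247861 in K562, and an enriched peak held a median of 16 and 28 reads in HEK293 and of 7, 9 and 7 in K562. The HEK293 libraries were therefore the deeper ones in peaks, and the background differed too: it held at most 1 read at 71.3% and 74.0% of the HEK293 peaks and at 97.1% to 97.9% of the K562 peaks, where the fold in effect sets a minimum number of reads. The part of these differences in the results below cannot be told apart from that of the line.

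Levels are given as RPM, reads scaled to 1000000 reads in the peaks of a library. The other 9 RBPs of the pools matched the line names over 2 marker lists. Their summed level over 20 erythroid and K562 genes was 34.9 and 32.0 RPM in HEK293, with 16 and 17 genes at 0 (all globin genes, GATA1, TAL1 and KLF1 among them), and 3286 to 3474 in K562, where 1 or 2 genes were at 0 (HBE1 in each pool). Over 12 genes typical of HEK293 it was 726.9 and 891.2 in HEK293 and 306.3 to 401.9 in K562, where 9 or 10 genes were at 0 and MAP1B and NEFM carried the sum; DPYSL3 was at 0 in all 5 pools.

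The RBFOX motif was more frequent in the enriched peaks of the HEK293 libraries. GCATG lay within 50 nt of 59.1% and 55.9% of the enriched RBFOX2 peaks in HEK293 and of 30.2%, 40.7% and 34.3% in K562, on the strand of the peak. Both HEK293 libraries were above all K562 libraries. The means were 57.5% ± 2.32 (SD, n = 2) and 35.1% ± 5.31 (SD, n = 3), a difference of 22.4 percentage points at the smallest p possible (exact permutation p = 0.2). In windows of the same length 500 nt to each side, GCATG was found in 17% and 18.2% for HEK293 and in 14.2% to 14.7% for K562, so the motif was above its surroundings in every RBFOX2 library. Over all merged RBFOX2 peaks, enriched or not, the share with GCATG was 36.2% and 32.4% in HEK293 and 26.2%, 33.0% and 29.8% in K562. There the lines overlapped.

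The other 9 RBPs served as a control for the motif within each tube. Their mean share of enriched peaks with GCATG was 11.9% and 12.8% in the HEK293 pools and 10.4% to 10.7% in the K562 pools, and the highest single value was 14.6%, for ZC3H11A in HEK293 replicate 2. RBFOX2 exceeded the mean of the other 9 by 47.2 and 43.1 percentage points in HEK293 and by 19.7, 30.0 and 23.9 in K562. The excess was positive in 5 of 5 pools, with a mean of 32.8 ± 12 (SD, n = 5 pools; exact sign-flip permutation test, two-sided, p = 0.063, the smallest that 5 pools can give). In the HEK293 pools RBFOX2 and the others were not called against a like external background. It held at most 1 read at 71.3% and 74.0% of the RBFOX2 peaks but at 6.583% to 23.967% of those of the others. In K562 this was 97.1% to 97.9% and 88.474% to 98.74%. The larger excess in HEK293 therefore cannot be compared like for like with that in K562. Over all merged peaks, enriched or not, RBFOX2 was at 26.2% or more in every pool and no other RBP passed 12.66%.

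**Figure D1:**
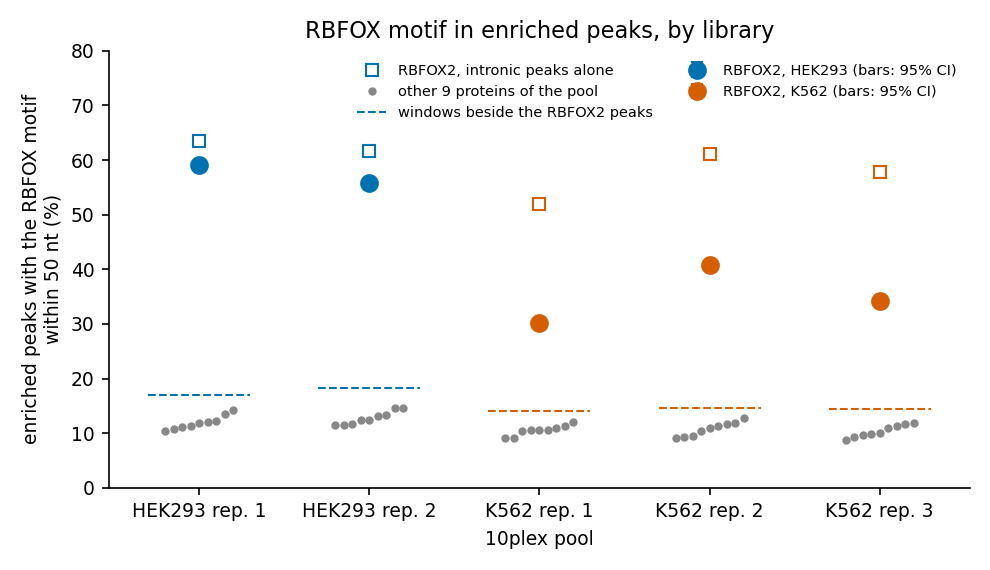
Share of enriched peaks with GCATG within 50 nt (y axis, percent) in each 10plex pool (x axis), with RBFOX2 as filled points (bars, 95% binomial interval), its intronic peaks alone as squares, the other 9 RBPs as small points and the windows beside the RBFOX2 peaks as dashed lines. RBFOX2 lies at 59.1% and 55.9% in HEK293 and between 30.2% and 40.7% in K562, and no other RBP passes 14.6%.

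The lines also differed in where the RBFOX2 peaks lay. Introns held 80.4% and 75.9% of the enriched peaks in HEK293 and 37.9%, 48.7% and 38.0% in K562. Coding sequence (CDS) held 3.48% and 5.26% in HEK293 and 39.0%, 28.3% and 35.3% in K562. The lines were apart in each region, with a difference of 36.6 percentage points in introns and of −29.8 in CDS, HEK293 minus K562 (exact permutation p = 0.2 for each). Much less of a difference was left within introns: GCATG accompanied 63.5% and 61.7% of the intronic peaks in HEK293 and 51.9%, 61.0% and 57.9% in K562, with means of 62.6% ± 1.24 (SD, n = 2) and 56.9% ± 4.61 (SD, n = 3; exact permutation p = 0.2). In CDS the motif was less frequent in both lines, at 35.6% and 32.1% in HEK293 and at 13.4%, 15.7% and 15.6% in K562.

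As an alternative, a peak had to exceed 8-fold the summed reads of the other 9 RBPs in their peaks at the same place. These reads were scaled to depth and taken as at least 1. The limit on P over the external background stayed, so these lists are not free of that background. Fewer K562 peaks were then kept. This left 16148 and 10935 peaks in HEK293 and 7195, 10759 and 6136 in K562. GCATG then accompanied 66.4% and 65.8% in HEK293 and 47.8%, 58.4% and 52.7% in K562, and introns held 87.5% and 86.9% against 65.8%, 76.1% and 64.9%. The order of the lines stayed, with a smaller distance of 13.1 percentage points for the motif and 18.2 for introns (exact permutation p = 0.2 for each).

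Enriched peaks of the 5 libraries that touched on the same strand were joined into 42113 sites. Replicates of a line shared more of their enriched peaks with each other than with the other line. Of the enriched peaks of HEK293 replicate 1, 56.0% met an enriched peak of replicate 2, and 75.1% the other way round. Between K562 replicates the share ran from 36.6% to 55.3%, from HEK293 to K562 it ran from 21.2% to 36.3% and from K562 to HEK293 from 26.5% to 32.2%. Counting peaks of any strength, 60.3% to 68.7% of the enriched K562 peaks met a peak in a HEK293 library, and the HEK293 lists were the longer ones. In another K562 library 47.9% to 66.2% of them met a peak of any strength, so this order did not hold for K562.

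The replicates gave 3 classes of site, and no test was made on the counts that define them. RBFOX2 was enriched in all 5 libraries at 1637 shared sites (3.89% of all sites). At 3317 sites (7.88%) it was enriched in both HEK293 libraries with no peak in any K562 library, which are called HEK293-only. At 447 sites (1.06%) it was enriched in all 3 K562 libraries with no peak in HEK293, which are called K562-only. Depth was uneven between these classes. At the level of its lowest replicate, 10 or more reads would be expected in the shallowest library of the other line for all 447 K562-only sites, but for 225 of the HEK293-only sites (6.78%), so the absence of a K562 peak at the others was not detectable at this depth. Lists of peaks hold no value where no peak of at least 3 reads was called, so a site without a peak is not one without reads.

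GCATG lay within 50 nt of 994 of the 1637 shared sites, or 60.7% (95% Clopper-Pearson interval 58.3% to 63.1%). For HEK293-only sites it was 61.7% (60% to 63.3%), and for the 225 with expected reads in K562 it was 68.4% (61.9% to 74.5%). For K562-only sites it was 49.2% (44.5% to 54.0%). The windows beside the sites held the motif in 20.7%, 20% and 17.3%, respectively, so that each class was at least 2.84 times its surroundings. Intervals here and below cover counting error alone, as the sites of a class come from the same libraries and are no replicates. All sites together, with those of no class, had the motif in 43.1%, and sites enriched in a single library in 37.7%.

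The longer form TGCATG was at 46.0% of the shared, 44.8% of the HEK293-only and 34.9% of the K562-only sites, so K562-only sites were lowest for both forms. At least 2 copies of GCATG were present at 20.3%, 23.2% and 12.1% of the sites, and at 44% of the HEK293-only sites with expected reads in K562. The sites with copies included the shared site of MMP25-AS1 with 10, LRCH4 with 5 and the HEK293-only site of INPP5A with 7. Among sites without GCATG, any of 6 weaker RBFOX motifs (GCACG or GAATG or GTATG or GTTTG or GTGTG or GAACG, searched on the strand of the site) was as frequent as in the windows, at 62.8% of shared sites against 61.0%, 54.1% of HEK293-only sites against 54.1%, and 48.0% of K562-only sites against 50.9%.

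The position of the motif was alike in the classes. Counted from the middle of the site in bins of 10 nt, GCATG was most frequent between 30 and 20 nt on the 5′ side, at 10.5% of the shared, 11.7% of the HEK293-only and 10.3% of the K562-only sites. On the 3′ side, between 50 and 60 nt, it was at 2.38%, 3.38% and 0.895%.

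**Figure D2:**
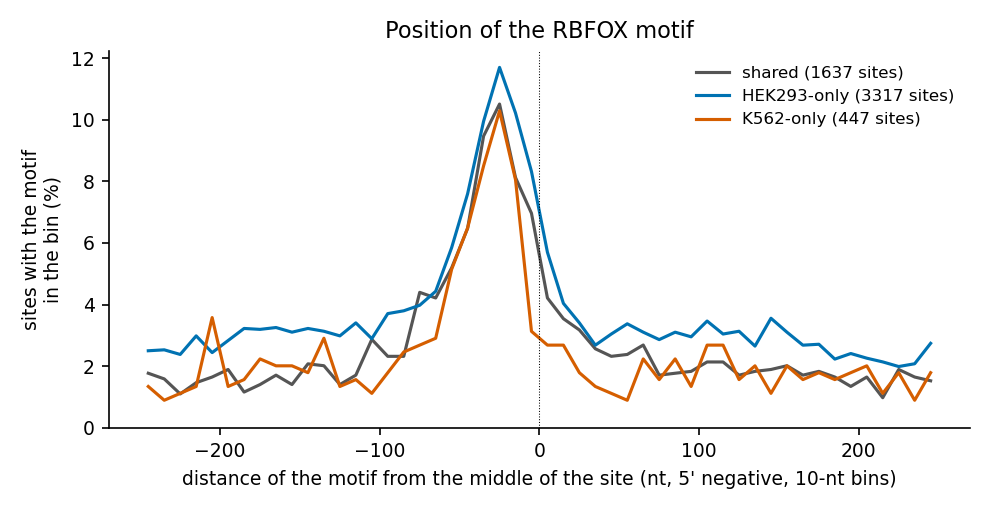
Share of sites with the centre of a GCATG in each 10-nt bin (y axis, percent) against the distance of the motif from the middle of the site (x axis, nt, 5′ negative), 1 line per site class. All 3 lines peak between 30 and 20 nt on the 5′ side, at 10.3% to 11.7%.

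The classes also differed in their genic regions. Introns held 57.8% of the shared sites, 85.2% of the HEK293-only sites and 52.4% of the K562-only sites. Distal introns, over 500 nt from an exon, held 30.9%, 58.9% and 40.5%. CDS held 8.74%, 3.23% and 26.4%, and noncoding exons 21.4%, 3.41% and 8.95%. Shared sites thus stood out by exons of noncoding genes, HEK293-only sites by distal introns and K562-only sites by CDS.

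**Figure D3:**
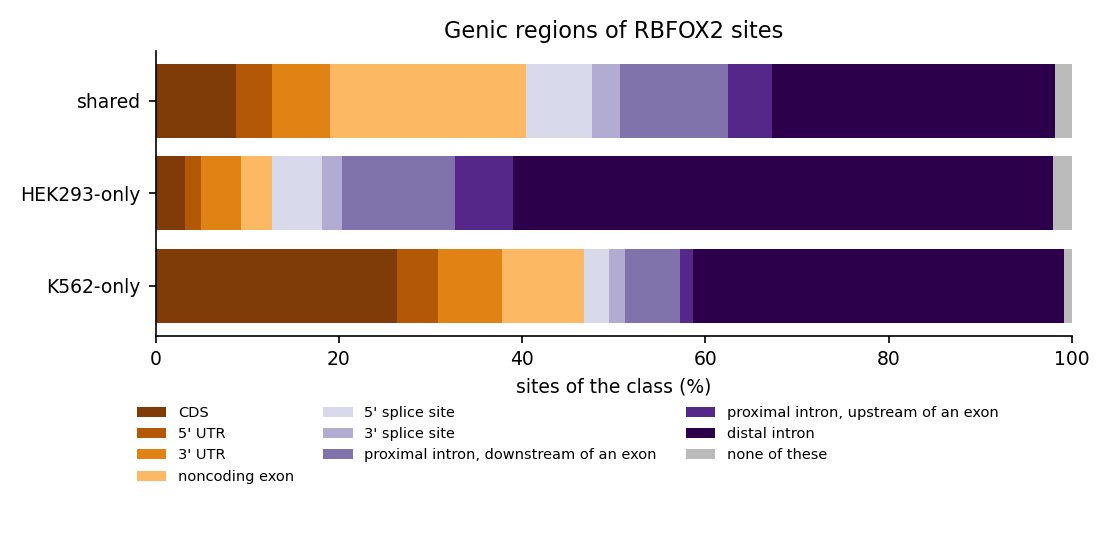
Share of the sites of each class (x axis, percent) in each genic region, stacked, for shared, HEK293-only and K562-only sites (y axis). Introns take up 85.2% of the HEK293-only sites, CDS 26.4% of the K562-only sites and noncoding exons 21.4% of the shared sites.

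Within introns, GCATG accompanied 74.8% of the shared sites (95% Clopper-Pearson interval 72% to 77.6%), 64.1% of the HEK293-only sites (62.3% to 65.8%) and 70.1% of the K562-only sites (63.8% to 75.9%). In introns the K562-only sites thus lay between the other classes. In exons of protein-coding genes the shares were 59.8% (54.1% to 65.3%), 48.5% (42.9% to 54.3%) and 24.9% (18.5% to 32.1%), and the windows of these K562-only sites held 13.3%. In noncoding exons, shared sites had the motif in 23.7% (19.4% to 28.5%), near the 17.9% of their windows. With sites in protein-coding and lncRNA genes alone, a choice made after the values were seen, the shared sites rose to 69.9%. Under the alternative of 8-fold over the other 9 RBPs, there were 997 shared, 2757 HEK293-only and 211 K562-only sites, with the motif at 80.9%, 68.3% and 79.6% and with 80.6%, 89.4% and 90.1% in introns.

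**Figure D4:**
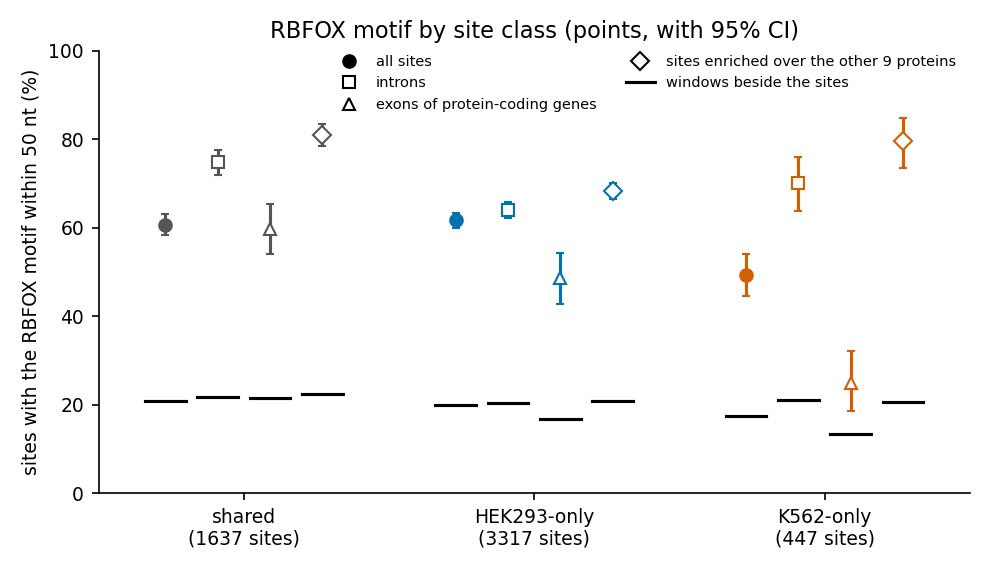
Share of sites with GCATG within 50 nt (y axis, percent, points with 95% Clopper-Pearson intervals) by site class (x axis), for all sites, for introns, for exons of protein-coding genes and for sites enriched over the other 9 RBPs, with the windows beside the sites as short lines. Over all sites the classes lie at 60.7%, 61.7% and 49.2%, within introns at 74.8%, 64.1% and 70.1%, and the windows of all sites lie at 17.3% to 20.7%.

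Annotated skipped exons lay near many sites. The 500 nt downstream of an exon that some transcripts skip overlapped 17.1% of the shared sites. This was so for 9.32% of the HEK293-only, 8.05% of the K562-only and 9.23% of all sites. The 500 nt upstream of such an exon gave a like picture, with 15.2% of the shared, 7.54% of the HEK293-only, 8.28% of the K562-only and 8.80% of all sites. Shared sites were also longer, which was not corrected for. Their median was 109 nt, against 83 (HEK293-only), 84 (K562-only) and 63 nt (all sites). The other 9 RBPs also had a peak at the shared sites in 52.0% to 76.4% of cases in each pool. At HEK293-only sites they had a peak in 37.5% and 45.5% in the HEK293 pools and in 4.76% to 5.76% in the K562 pools. At K562-only sites this was 22.6% and 24.6% in HEK293 and 55.5% to 64.2% in K562. The other proteins thus mostly lacked peaks, too, at HEK293-only sites in K562.

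The kind of gene differed as well. Small RNA genes held 16.6% of the shared sites, and the 6 shared sites with the most RPM had no GCATG nearby. Those in noncoding RNAs were RNU12 and RNU5E-1 (spliceosomal RNAs), SCARNA2 (a Cajal body RNA), RMRP (the RNA of the RNase MRP complex) and GAS5 (a host of small nucleolar RNAs), and the other lay at a 5′ splice site of ENSG00000271793, annotated as protein-coding. RNU12 had 1160 and 1698 RPM in HEK293 and 6248, 4007 and 10340 in K562. Long noncoding RNA (lncRNA) genes held 6.90% of the shared, 8.71% of the HEK293-only and 30.2% of the K562-only sites. These 135 K562-only sites lay in 52 lncRNA genes, 94 of them had GCATG, and 12 lay in lncRNA genes where the other 9 RBPs had reads in both HEK293 pools.

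Among shared sites in protein-coding and lncRNA genes, those with the most RPM were picked after the values were seen. In MMP25-AS1, the antisense lncRNA of the MMP25 gene, RBFOX2 had 2497 and 4555 reads in HEK293 and 487, 663 and 382 in K562, or 2006, 2246, 1599, 1403 and 1541 RPM. The levels were close, with both HEK293 libraries above the K562 libraries. In U2AF2, which codes for the large subunit of the factor that reads the polypyrimidine tract, the intronic site had 2521 and 1927 RPM in HEK293 and 250, 292 and 250 in K562. In LRCH4, 216 and 260 RPM in HEK293 stood against 2640, 2044 and 3062 in K562. NEAT1, the RNA of nuclear paraspeckles, had 1015 and 1196 in HEK293 and 1185, 2124 and 1134 in K562, where the lines overlapped.

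Shared sites were thus not equal in level. Over the 1637, the median log2 ratio of HEK293 to K562 in RPM was −0.81 (quartiles −1.86 and 0.01), a level relative to each library's own peaks. Both HEK293 libraries were above all K562 libraries at 182 sites, and all K562 libraries above both HEK293 libraries at 857. Of the 994 shared sites with GCATG the median was −0.58, and of the 643 without it −1.44. Within introns it was −0.50. By gene, shared sites were most numerous in NEAT1 (17) and MALAT1 (16), both nuclear lncRNAs, followed by DGCR8 (11), the partner of the microRNA processing enzyme DROSHA, the dynamin gene DNM2 (10), ARFGAP1 (10), GAS5 (9) and SNRNP70 (8), which codes for a U1 snRNP protein.

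Line-specific sites were named where the other 9 RBPs had peaks in the gene in all replicates of the other line, at any number of reads. Presence there could be slight. On PTPRF the other 9 had 1137 and 1775 reads in HEK293 and 5, 14 and 4 in K562. The other HEK293-only genes named here had fewer in K562, too, such as MMP25-AS1 with 718 and 1207 against 91, 150 and 100. The HEK293-only site of INPP5A, an inositol phosphatase gene, had 313 and 712 RBFOX2 reads, or 251 and 351 RPM, and no peak in K562. A second MMP25-AS1 site had 382 and 581 reads in HEK293 and no K562 peak, although the shared site in the same gene was among those with the most reads in both lines. SNAP47, a SNARE gene, had 216 and 300 reads, PTPRF, a receptor phosphatase gene, 187 and 307, and DNM1, a dynamin gene, 215 and 318 reads at a site with no GCATG. In each of these the HEK293 level would have given over 10 reads in every K562 library.

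Of the K562-only sites chosen in the same way, ADAMTSL4, which codes for an extracellular matrix protein, had 114, 84 and 25 reads in the K562 libraries, or 374, 178 and 101 RPM. EGFL7 had 60, 94 and 57 reads and PRAME, a tumour antigen gene, 53, 36 and 56, both with no GCATG. HK1, the hexokinase 1 gene, had 37, 108 and 60 reads at a site in the 5′ UTR, GABRG3, which codes for a GABA receptor subunit, 78, 77 and 37, and PRKCB, the protein kinase C beta gene, 31, 73 and 55. The HEK293 libraries, the deeper ones in RBFOX2 peaks, had no peak at any of these 6 sites. On ADAMTSL4 the other 9 RBPs had 3 and 7 reads in HEK293 against 1567, 2048 and 1619 in K562. On HK1 they had 233 and 288 against 669, 1173 and 956, and on GABRG3 242 and 61 against 90, 222 and 201.

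Some genes held many line-specific sites. SLIT2, which codes for a secreted axon guidance ligand, held 57 HEK293-only sites (37 with GCATG), DIP2C 35 (24), the homeobox gene HOXA3 19 (8), IRS4, an adaptor of insulin receptor signalling, 17 (4), and the lncRNA gene MIR924HG 17 (16). The lncRNA gene MIR3667HG held 20 K562-only sites (12 with GCATG), PRKCB 15 (13) and the lncRNA gene ENSG00000286251 10 (8). PLEKHB2 held 8 (2), EGFL7 7 (1), PRAME 7 (1), LINC02476 7 (7) and HBG2, a gamma globin gene, 6 (3). In SLIT2 the other 9 RBPs had 5621 and 9384 reads in the HEK293 pools and 0, 36 and 33 in the K562 pools. In PRKCB they had 3 and 4 reads in HEK293 and 1515, 2620 and 1620 in K562. The other proteins of the tube were thus line-specific, too, on SLIT2 and PRKCB. In PLEKHB2, EGFL7 and PRAME they had reads in HEK293 as well, at 127 and 168, 159 and 167, and 58 and 61. In K562 they had 451 to 919, 1322 to 2570 and 1644 to 2481 reads on these.

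Some genes carried line-specific sites of both lines. Among protein-coding and lncRNA genes there were 849 with a shared site, 1595 with a HEK293-only site and 223 with a K562-only site. A HEK293-only and a K562-only site occurred together in 17 genes, such as GSE1 (7 shared, 1 HEK293-only and 4 K562-only sites), ENO1, the enolase 1 gene (6 HEK293-only and 1 K562-only), PPP2R5C, which codes for a regulatory subunit of protein phosphatase 2A (1 and 3), and PFKP, the platelet phosphofructokinase gene (6 shared, 2 HEK293-only and 1 K562-only). A shared site was also present in 284 of the genes with a HEK293-only site and in 35 of those with a K562-only site. All 3 kinds occurred in 8 genes. No test was made on these counts.

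Counted by gene, 7505 genes had an enriched RBFOX2 peak in any library. In 1476 (19.7%) this was so in all 5 libraries, in 1080 (14.4%) in both HEK293 and no K562 library, and in 745 (9.93%) in all K562 and no HEK293 library. A peak of any strength was absent from the other line in 508 of the HEK293-only and 119 of the K562-only genes. Most K562-only genes thus had RBFOX2 peaks in HEK293 that did not pass the limits: 80.7% and 82.7% of them had some peak in the HEK293 libraries.

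The other 9 RBPs then served as a control for whether the gene's RNA was there to be bound. Introns held 4.05% to 5.78% of the enriched FAM120A peaks in K562 and 27.3% to 54.0% of those of SF3B4. The control thus does not gauge intronic RNA by itself. Of the 1080 HEK293-only genes, 522 (48.3%, 95% Clopper-Pearson interval 45.3% to 51.4%) had peaks of other RBPs in all 3 K562 pools, against 84.1% of all 7505 genes. Of the 745 K562-only genes, 610 (81.9%, 78.9% to 84.6%) had them in both HEK293 pools, against 93.3%. The level of the other RBPs moved with that of RBFOX2. The median over HEK293-only genes was 34.2 and 38.1 RPM in HEK293 and 1.98 to 2.86 in K562, and over K562-only genes 48.3 and 51.0 in HEK293 and 112 to 131 in K562. Over the shared genes it was 111 and 116 in HEK293 and 101 to 114 in K562. At least the median level of their class in the own line was reached in the other line by 10.0% of the HEK293-only genes and by 28.6% of the K562-only genes.

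To set RBFOX2 against the other 9 RBPs gene by gene, the log2 RPM of RBFOX2 minus that of the summed other 9 was taken in each pool, called the relative level here, and tested with limma over 12956 genes. The relative level was larger in HEK293 for 647 genes (4.99% of those tested) and larger in K562 for 528 (4.08%) at a Benjamini-Hochberg adjusted p below 0.05, around a median difference of 0.70 over all genes. Most calls rested on genes without reads in peaks. Of the 647, 567 had no RBFOX2 read in K562, and of the 528, 497 had no read of the other 9 in K562 and 492 none of RBFOX2 either. The pseudocount of 0.5 reads sets the difference of such genes, which is neither a fold nor a bound. Among the 4668 genes with reads of RBFOX2 and of other RBPs in all 5 pools, a set taken after the values were seen, the limma fit called 1 gene in each direction, VTI1A and PLEKHB2, while 974 had an unadjusted p below 0.05. Without HEK293 replicate 1, HEK293 replicate 2 or K562 replicate 1 no gene was called over all genes, and 1048, 1025 and 2983 had an unadjusted p below 0.05; without K562 replicate 2 it was 920 and 343 genes, and without replicate 3 it was 342 and 250.

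The 10 genes with the largest relative level in HEK293, among those with an enriched peak in both HEK293 libraries, all lacked an RBFOX2 peak in K562. MECOM, a zinc finger transcription factor gene with 14 sites, 8 of them with GCATG, had 481 and 544 RBFOX2 RPM in HEK293 and 0 in K562, against 46.9 and 69.4 RPM of the other 9 in HEK293 and 19.0, 12.9 and 22.9 in K562 (limma, adjusted p = 0.0106). DOCK1, which codes for an activator of the GTPase RAC1, had 653 and 555 in HEK293, against 74.2 and 91.8 of the other 9 in HEK293 and 5.35, 9.58 and 6.20 in K562. RABGGTB, which codes for a subunit of the enzyme that attaches lipids to Rab proteins, had 66.7 and 90.8 for RBFOX2 in HEK293, while the other 9 overlapped between lines, with 109 and 77.5 in HEK293 and 99.9, 86.2 and 183 in K562. For MECOM and DOCK1 the other proteins were higher in HEK293 too, but by less.

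The remaining genes of the 10 were SNPH, SLC36A1, MDGA2, ASAP2, FANK1, FRMD4A and ERC2. ERC2 codes for a protein of the presynaptic active zone, SNPH for an anchor of axonal mitochondria and SLC36A1 for an amino acid transporter. Their RBFOX2 levels ran from 19.2 RPM (SNPH, HEK293 replicate 2) to 288 (MDGA2, HEK293 replicate 2), with no peak in K562. FANK1 had 29.7 and 29.1 RPM in HEK293. At the lowest HEK293 level of SNPH and of FANK1, fewer than 10 reads would be expected in the shallowest K562 library. Their absence from K562 was thus not detectable at this depth. FANK1 rested on RBFOX2 alone, as the other 9 had no read in HEK293.

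Among the 10 genes with the largest relative level in K562, RBFOX2 itself was clearly higher in K562 for PLEKHB2, GABRG3 and LINC02506, and was found in K562 alone for NINJ2 and ENSG00000249526. PLEKHB2, which codes for a protein with a pleckstrin homology domain, had 7.23 and 15.3 RBFOX2 RPM in HEK293 and 3257, 3241 and 2743 in K562. The other 9 had 29.4 and 27.2 in HEK293 and 268, 304 and 256 in K562, so both were higher in K562 and RBFOX2 by more (difference in relative level −4.83 ± 0.427 (SE), limma, adjusted p = 0.0112). GABRG3 had 24.1 and 0 in HEK293 and 519, 817 and 682 in K562, while the other 9 overlapped between lines at 9.87 to 56.0 in HEK293 and 53.5 to 95.9 in K562. NINJ2 had 102, 127 and 80.7 in K562, with no read of the other 9 in any pool.

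For the other 5 genes the call came from the other 9 RBPs. In MID1, a gene of a ubiquitin ligase bound to microtubules, RBFOX2 was higher in HEK293, at 417 and 354 RPM against 23, 27.5 and 28.2 in K562, and the other 9 went from 136 and 158 to 0. HIVEP2 was of the same kind, with 214 and 248 against 23, 36.0 and 36.3. In PACS2, RBFOX2 was at 823 and 727 in HEK293 and at 959, 920 and 940 in K562, while the other 9 fell from 190 and 224 to 19.0, 10.9 and 20. CD151, a tetraspanin gene, and CTSD, the gene of the lysosomal protease cathepsin D, had RBFOX2 levels that overlapped between the lines and lower levels of the other 9 in K562. VTI1A, a SNARE gene with reads of RBFOX2 and the others in all pools, was named after its values were seen. Its RBFOX2 level was 278 and 276 RPM in HEK293 and 9.85, 14.8 and 16.1 in K562, and the other 9 overlapped, at 55.5 and 66.5 against 47.6, 74.6 and 59.2 (difference 4.29 ± 0.394 (SE), limma, adjusted p = 0.0118). With PRPF8 and SF3B4 alone as the control the difference was 0.60 and did not pass (limma, adjusted p = 0.826).

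**Figure D5:**
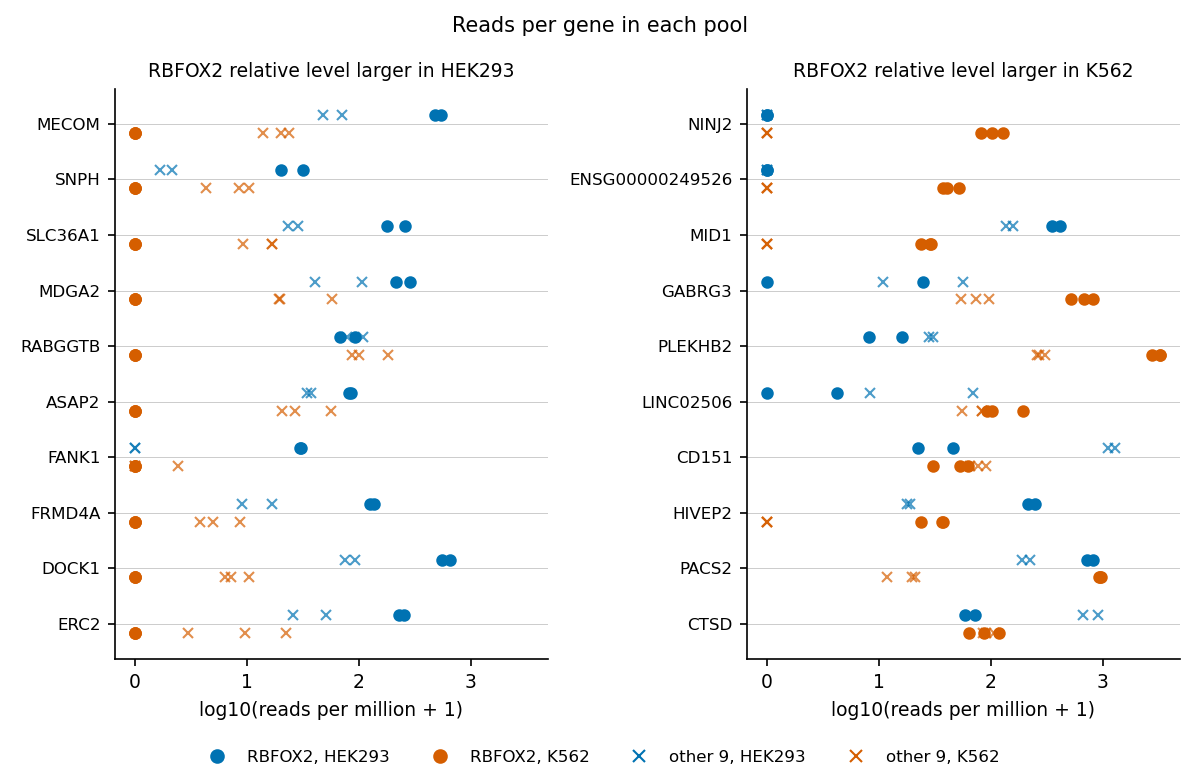
RPM in each pool (x axis, log10 of the value plus 1) of RBFOX2 and of the summed other 9 RBPs for the genes (y axis) with the largest relative RBFOX2 level in HEK293 and in K562. RBFOX2 lies at 0 in K562 for the 10 genes of the HEK293 panel, and PLEKHB2 has 2743 to 3257 RPM in K562 against 7.23 and 15.3 in HEK293.

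Lists of genes that RBFOX proteins are known for, or that mark the lines, were counted in the same way. Of 22 genes with alternative exons known to be regulated by RBFOX proteins, 10 were enriched in all 5 libraries, 4 in HEK293 alone and 0 in K562 alone, and 21 of the 22 were enriched in at least 1 library. Of the 7505 genes enriched in any library, 19.7%, 14.4% and 9.93% were in these classes. Among the 10 were EPB41, CTNND1, NDEL1, PICALM, TSC2, MAP3K7, EWSR1, EXOC1 and MYH10. EPB41, which codes for the membrane skeleton protein 4.1R, had 465 and 454 RBFOX2 RPM in HEK293 and 1721, 2033 and 1816 in K562, and the other 9 had 316 and 381 against 1139, 1154 and 1017, so that both were higher in K562 alike. NDEL1, a dynein regulator gene, had 521 and 379 in HEK293 and 407, 575 and 492 in K562, where the lines overlapped.

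The 4 in HEK293 alone were ENAH, FGFR2, KIF21A and CACNA1C. ENAH, an actin regulator gene, had 892 and 796 RBFOX2 RPM in HEK293 and no peak in K562, and the other 9 went from 1185 and 1204 to at most 1.78. KIF21A, a kinesin gene, was the member in which the other 9 were not lower in K562. It had 92.4 and 70.0 RBFOX2 RPM in HEK293 and 29.6, 65.6 and 24.2 in K562, with 31.4 and 30.9 of the other 9 against 63.6, 58.8 and 56.8, and the difference of 2.08 did not pass the test (limma, adjusted p = 0.116). All 22 genes were tested, and 1 had a larger relative level in HEK293 and 1 in K562, around a median of 0.21 against 0.70 over all genes. Neither was enriched in all replicates of its line, and the one in K562, PLOD2, had no read of any protein in K562.

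Of 41 genes of splicing regulators and of the RBFOX family, 37 were enriched in some library, 26 were enriched in all 5 libraries, 0 in HEK293 alone and 4 (PTBP3, SRSF3, SRSF5 and SRSF7) in K562 alone. Among the 26 were PTBP1, which codes for the polypyrimidine tract binding protein, SNRNP70, QKI, MBNL1 and TRA2B. PTBP1 had 598 and 624 RBFOX2 RPM in HEK293 and 782, 605 and 698 in K562, where the lines overlapped. PTBP3 had 79.5 and 55.7 in HEK293 and 184, 284 and 327 in K562, and the other 9 had 732 and 707 against 2383, 3422 and 2052. SRSF3, SRSF5 and SRSF7 had RBFOX2 peaks in HEK293, too, that did not pass the limits. SRSF5 had 170 and 160 RPM in HEK293 and 72.2, 104 and 165 in K562, where the lines overlapped. SRSF7 had 113 and 108 against 138, 129 and 153, and SRSF3 80.3 and 86.3 against 161, 176 and 198. RBFOX2 peaks on the RBFOX2 gene itself had 755 and 653 RPM in HEK293 and 69.0, 80.4 and 24.2 in K562, and the other 9 had 225 and 206 against 35.1, 36.3 and 38.6, so that RBFOX2 and the sum of the others were both lower there in K562. Of the 39 tested, 0 had a larger relative level in HEK293 and 2 in K562 in the limma fit (MBNL3 and NOVA2, both without a read of any protein in K562), around a median of −0.02.

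Of 35 actin cytoskeleton and adhesion genes, 33 were enriched in some library, 15 were enriched in all libraries, 5 in HEK293 alone (MYO9A, CDH2, ENAH, SPTAN1 and EPB41L3) and 2 in K562 alone (FLNC and VASP). FLNC, a filamin gene, had 5.62 and 15.3 RBFOX2 RPM in HEK293 and 460, 322 and 391 in K562, beside 29.6 and 26.4 against 491, 299 and 408 for the other 9. Of 34 genes of neuronal adhesion and axon guidance, 16 were enriched in some library, 1 (PTPRS) was enriched in all libraries, 9 in HEK293 alone (ROBO1, ROBO2, SLIT2, SLIT3, NRXN3, NLGN1, NCAM1, CADM1 and AUTS2) and 1 in K562 alone (NCAM2). The 2 ROBO receptors and their ligands SLIT2 and SLIT3 were among the 9, while SLIT1, also on the list, was enriched in no library. On ROBO1 the other 9 RBPs had 421 and 430 RPM in HEK293 and 0 in K562. On ROBO2 and SLIT3 they overlapped between the lines. AUTS2 had 1437 and 1360 RBFOX2 RPM in HEK293 and none in K562, while the other 9 had 242 and 253 against 62.4, 2.97 and 11.5 (limma, adjusted p = 0.0597). In both lists 2 genes had a larger relative level in K562, and 0 and 2 had one in HEK293, of 34 and 29 tested, with medians of −0.35 and 0.38. These were CDH2, ITGA6, NRP1 and NRP2 for K562 and SLIT1 and TENM4 for HEK293, all without a read of any protein in K562.

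Of the 20 erythroid and K562 genes, 16 were enriched in some library, 11 were enriched in K562 alone, 0 in HEK293 alone and 1 (SLC25A37) in all libraries. GATA1, the erythroid transcription factor gene, had 154, 152 and 121 RBFOX2 RPM in K562, and the other 9 had 178, 105 and 115, with no peak of any protein in HEK293. RHAG, an erythrocyte membrane protein gene, had 483, 791 and 597 in K562 and none in HEK293. The limma fit gave 8 members a larger relative level in HEK293, though each lacked reads of RBFOX2 and of the other 9 there, so that the pseudocounts alone set their HEK293 value. Of the 12 HEK293 genes, 3 were enriched in some library, 2 (CDH2 and EYA1) were enriched in HEK293 alone and 1 (MAP1B) in all libraries, and the 5 with a larger relative level in K562 (NEFL, INA, CDH2 and EMX2 among them) lacked reads there in the same way.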

How the data were processed

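10plex ABC libraries of RBFOX2 and 9 other RBPs in HEK293 (2 pools) and K562 cells (3 pools) were used, grouped by the cell line in the sample titles and source names. According to the submitters' processing notes and the methods of the study, the authors trimmed adapters (cutadapt 2.8), filtered out repetitive reads, kept those that STAR 2.7.6 placed uniquely in GRCh38, discarded PCR duplicates and ran CLIPper per library. For every CLIPper peak the authors deposited its p-value and an integer score for genome browsers. A second deposited list, after merging, gives −log10 P and log2 fold over an external background. The methods tried several backgrounds, RNA-seq of each line among them, and which one lies behind each list is not given in the sources used here.

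Reads per peak were recovered from the whole-number ratio behind the deposited log2 fold and the P. The recovered reads were equal to those in the peak names, where the names of RBFOX2 peaks give them, for 99.3% and 99.0% of the peaks (K562 replicates 1 and 3). No name gives them for HEK293 or K562 replicate 2. RPM are reads scaled to 1000000 reads in the peaks of the library, so reads outside peaks are unknown, and RBFOX2 held 22.3% and 24.7% of the reads in peaks of the HEK293 pools and 15.3%, 13.5% and 10.6% of those of the K562 pools. Genes and regions came from GENCODE release 44 (the authors used an older release), with peaks on chromosomes 1 to 22 and X. Splice site regions, proximal introns (within 500 nt of an exon) and distal introns were counted together as introns. Motifs were searched on the strand of the peak in GRCh38.

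Values per library were compared with exact permutations of the line labels, and RBFOX2 with the other RBPs by exact sign flips over pools. Gene levels (at least 10 reads of RBFOX2 or of the others in 2 or more pools) were tested with limma 3.58.1 (lmFit, eBayes with trend; R 4.3.3) on log2 values with a pseudocount of 0.5 reads. Differences are on that scale. They understate those of low genes, and where a gene has no reads the pseudocount sets them. Python 3.11.15, numpy 2.4.6, pandas 2.3.3, scipy 1.17.1, pysam 0.24.0 and matplotlib 3.10.9 were used, and the steps were tested on simulated data.

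Named genes were the 10 with the largest difference in each direction among those past an adjusted p of 0.05, with no overlap between lines and an enriched RBFOX2 peak in every replicate of the higher line. Named sites were the 6 of each class with the highest mean RPM, no more than 1 per gene, and for line-specific classes in genes with peaks of other RBPs in all replicates of the other line. The libraries, gene lists and tests were chosen with earlier results of these data known. The alternatives were stricter and looser limits, the other 9 RBPs as background of the fold, equal list lengths and a minimum of expected reads. Further ones were other overlap, motif and region rules, peaks near adapter-like sequence left out, and other pseudocounts, filters, controls and centring. A replicate block was also tried, and each library was left out in turn. A few members of the gene lists are counted but not reported by name here.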

Additional observations from a re-analysis of the deposited data

Results flagged for a closer look

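Among genes with reads of RBFOX2 and of the other RBPs in all 5 pools, the relative level of RBFOX2 differed between the lines beyond the adjusted threshold in both PLEKHB2 and VTI1A, and the cause was not tested. For PLEKHB2 the difference, HEK293 minus K562 on the log2 scale, was −4.83. RBFOX2 had 9 and 31 reads on PLEKHB2 in HEK293 and 992, 1532 and 680 in K562, and the gene held 8 K562-only sites, 2 of them with GCATG. The other 9 RBPs had 127 and 168 reads on it in HEK293 and 451, 919 and 537 in K562.

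For VTI1A the difference was 4.29 in the same direction of subtraction. RBFOX2 had 346 and 560 reads on VTI1A in HEK293 and 3, 7 and 4 in K562, and the other 9 RBPs had 240 and 411 in HEK293 and 80, 226 and 124 in K562. In both genes the values of the lines did not overlap, in 2 of 2 HEK293 and 3 of 3 K562 pools. Neither call stayed past the threshold with the replicate block or without HEK293 replicate 1, HEK293 replicate 2 or K562 replicate 1. With PRPF8 and SF3B4 alone as the control, the difference of VTI1A was 0.60 (limma, adjusted p = 0.826) and that of PLEKHB2 −5.02 (adjusted p = 0.0248).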

How the results depend on the processing

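Stricter limits (P below 1e-05, fold above 16) left 693 shared and 493 K562-only genes, and 983 shared, 1401 HEK293-only and 231 K562-only sites, with GCATG at 57.1% of the shared and 64.1% of the HEK293-only sites and introns at 52.7% and 86.7%. Over the other 9 RBPs, K562-only genes were 323 and sites 997, 2757 and 211 (shared, HEK293-only, K562-only), with GCATG at 80.9%, 68.3% and 79.6% and introns at 80.6%, 89.4% and 90.1%. Without a peak of any strength in the other line, genes were 508 (HEK293-only) and 119 (K562-only). HEK293-only sites were 2124 at equal list length and 225, with GCATG at 68.4%, where 10 reads were expected in K562. K562-only sites were 1982, with GCATG at 31.5%, where an unenriched HEK293 peak was allowed. The motif within the site alone was at 52.1%, 48.0% and 38.5%, TGCATG at 46.0%, 44.8% and 34.9%, GCATG at 59.6% of HEK293-only sites with centres within 50 nt, and at 69.9% of shared sites in protein-coding and lncRNA genes. Regions at the centre of the site gave introns of 63.2%, 86.7% and 57.7%. The level rule of the expression control gave 10.0% and 28.6%. The cause of these shifts was not tested.

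The limma counts (larger in HEK293, larger in K562) were 3565 and 934 without a control, 316 after centring on the median gene for HEK293, 61 with PRPF8 and SF3B4 as control for K562, and 1 and 1 for genes measured in all pools. Without a control MID1 and HIVEP2 turned to a higher level in HEK293, by 3.85 and 2.87. With the replicate number as a block, limma called 0 and 0 genes (2293 at an unadjusted p below 0.05), and the paired differences were 4595 peaks and 963 genes in pair 1 and, in pair 2, −4584 peaks and −627 genes, the reverse of the means. The block set the former numbers of the HEK293 pools against the present numbers of the K562 pools. The correlations of the deviations of equal numbers over genes were −0.07 and −0.03, so they share only a number. The lines share 1 former number (HEK293 replicate 1 and K562 replicate 3, correlation 0.04), too few for a block.

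Leaving out a library in turn gave differences of −951 to 4261 peaks and −121 to 944 genes per library (turned without HEK293 replicate 1), 20 to 25.3 percentage points for the motif, 29.2 to 36.0 for its excess over the other RBPs and 34.4 to 40.2 for introns. Shared, HEK293-only and K562-only genes were 1536 to 1784, 1159 to 1818 and 813 to 1043, and sites 1765 to 2231, 3667 to 9332 and 555 to 1047, since fewer libraries had to hold them. GCATG was at 59.0% to 63.1%, 55.6% to 63.3% and 39.3% to 46.7% of these sites, and introns at 56.6% to 64.2%, 83.6% to 85.5% and 44.2% to 53.9%. Other RBPs in the other line were found for 49.2% to 57.3% of the HEK293-only and 81.6% to 87.8% of the K562-only genes, and limma called 0 to 920 and 0 to 343 genes. The differences per library moved by over 1.5 times to 2628 peaks at any fold above 1, to 13.1 percentage points for the motif and 18.2 for introns over the other 9 RBPs, and to 5.64 for the motif in intronic peaks. Of the 21 named genes, 11 lost their call with PRPF8 and SF3B4 as control, VTI1A at 0.60 and LINC02506 at −0.40 among them. Alternatives in protein-coding and lncRNA genes, introns alone, genes measured in all pools and the other RBPs as background for values per library were chosen after seeing the data.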
